A study of Mus musculus with 12 samples.

Results

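Dmrt3 and 8 other transcription factor genes that pattern the dorsal telencephalon, the part of the embryonic forebrain that gives rise to cortex and hippocampus, were followed in mouse neural progenitor cells (mNPCs). The 9 genes were Dmrt3, Dmrta2, Emx1, Emx2, Lhx2, Pax6, Gli3, Nr2f1 and Nr2f2, out of 18911 genes in the count table. Dmrt3 was taken up because its count was low in Kmt2a+/LSL libraries and high again in Nes-Cre+/- Kmt2a+/LSL libraries, so its values in those genotypes are given as a description without a test. The other 8 genes were taken for their role in the same tissue.

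The mNPCs had been grown from the hippocampus of P0 pups in medium with FGF-2 and EGF, and their poly(A) RNA was sequenced in 12 libraries, 3 per genotype. Kmt2a+/+ was the wild type. Kmt2a+/LSL carried 1 allele of Kmt2a, the gene of a histone H3 lysine methyltransferase, with a stop cassette between loxP sites (LSL) in the first intron, which ends the transcript early. Nes-Cre+/- Kmt2a+/+ carried the nestin-Cre transgene without the cassette. Nes-Cre+/- Kmt2a+/LSL carried both, so that Cre, driven by nestin regulatory sequence in neural progenitors, could remove the stop. No homozygous LSL cells were among the libraries, and the labels do not say whether the 3 libraries of a genotype came from separate pups, so the p-values measure only the spread between these libraries.

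In the embryo, the medial edge of the cortical sheet forms the cortical hem, a source of Wnt and Bmp signals that lies next to the future hippocampus. The genes of this group read and limit those signals. Dmrt3, Dmrta2 and Emx2 are highest medially, Pax6 laterally and rostrally, Lhx2 holds cortical identity against hem fate, Gli3 restrains Sonic hedgehog signalling, and Nr2f1 and Nr2f2 set caudal and ventral areas. Dmrt3 and Dmrta2 belong to the family of DM-domain (doublesex and mab-3) zinc finger proteins.

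The sequences just before the RefSeq start of these 2 DM-domain genes are shown because Dmrt3 was low in every Kmt2a+/LSL library while the libraries of Dmrta2, its relative, overlapped between genotypes. Nothing in these data measures the promoters themselves. Both sequences come from RefSeq, build GRCm38.p6, plus strand, and run 5′ to 3′ over 182 bases with each CG dinucleotide in capitals. The annotations differ on where Dmrt3 begins. RefSeq starts it at 25610537, while GENCODE has a further exon that starts at 25610301, so the Dmrt3 stretch is upstream of the RefSeq start and inside the gene as GENCODE draws it.

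Dmrt3, chr19:25610355-25610536: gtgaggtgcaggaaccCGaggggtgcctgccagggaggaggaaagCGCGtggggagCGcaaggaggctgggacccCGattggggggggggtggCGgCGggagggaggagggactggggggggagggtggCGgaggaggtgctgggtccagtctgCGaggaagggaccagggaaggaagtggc

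Dmrta2, chr4:109977843-109978024: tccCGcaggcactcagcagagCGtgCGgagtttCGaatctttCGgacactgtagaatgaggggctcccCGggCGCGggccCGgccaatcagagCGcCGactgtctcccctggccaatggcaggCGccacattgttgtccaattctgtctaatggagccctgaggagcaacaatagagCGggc

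The Dmrt3 sequence held 9 CG dinucleotides at 72.0% G and C, and the Dmrta2 sequence 13 at 61.5%. All 9 genes matched a RefSeq window of the 250 bases before a start, 12 windows in all because Lhx2, Pax6 and Nr2f1 have 2 each. Of the 12 windows, 10 held more CG dinucleotides than the median of 6 over 32841 mouse windows, Gli3 most with 34. The windows with fewest were that of Nr2f2, with 1, and the inner window of Nr2f1, with 2. Read on both strands, CCAAT stood in 5 of the 12 windows (33.9% of all windows) and GGGCGG in 5 (32.7%), while TATAAA (12.4%), TAATTA (4.84%) and AGGTCA (14.0%) stood in none. The Dmrt3 and Dmrta2 windows each held CCAAT.

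Library totals ran from 18280008 to 28596919 estimated counts. Kmt2a, the targeted gene, averaged 6943 ± 238 normalized counts for Kmt2a+/+, 3981 ± 9.39 for Kmt2a+/LSL, 7124 ± 327 for Nes-Cre+/- Kmt2a+/+ and 6518 ± 305 for Nes-Cre+/- Kmt2a+/LSL (mean ± SD of 3 libraries), where a normalized count is a count scaled to the mean effective library size. The Kmt2a+/LSL libraries lay at 3972 to 3991 and the other 9 at 6205 to 7427, as the labels require. Kmt2a+/+ replicate 1 stood apart from the other libraries, with a median correlation of 0.903 with its own genotype and 13.2% of its counts in its 10 highest genes. Nes-Cre+/- Kmt2a+/LSL replicate 1 was the next, with 10.7%. For the 8 genes other than Emx1, which was near the floor, values of Kmt2a+/LSL against Kmt2a+/+ are given with and without these 2 libraries.

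Most progenitor genes were well expressed. Sox2, a progenitor transcription factor, ran from 5408 to 9281 normalized counts. Hes5, a Notch target named after its values were seen, had 51.3 in Kmt2a+/+ replicate 1 and 1097 to 3822 in the other 11 libraries. All 10 progenitor markers were measured. Their summed level was 6725 to 8402 CPM, counts relative to the size of the library, in Kmt2a+/LSL and 7606 to 13119 in Kmt2a+/+, highest in replicate 1. Fabp7 and Vim made up most of that sum and were highest in Kmt2a+/+ replicate 1. Sox2, Msi1, Notch1 and Hes5 were lowest there, and the remaining markers lay between. Olig2, a gene of the oligodendrocyte lineage that is counted in the subpallial list below, was also abundant, at 9463 to 26746 normalized counts. Within the oligodendrocyte lineage list, mean counts ran from 1 for Mog and 39 for Mbp to 3540 for Cspg4. Microglial markers summed to at most 2.498 CPM and choroid plexus markers to at most 1.63 CPM in any library.

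Dmrt3 (ENSMUSG00000042372) lies on chromosome 19 from 25610301 to 25623921, plus strand, and encodes a DM-domain transcription factor of the dorsal telencephalon that is also known from spinal cord interneurons. The Kmt2a+/+ libraries held 279, 354 and 302 normalized counts of it, and those of Kmt2a+/LSL held 172, 126 and 110. Libraries of Nes-Cre+/- Kmt2a+/+ held 273, 349 and 354, and those of Nes-Cre+/- Kmt2a+/LSL held 264, 330 and 347. The 3 Kmt2a+/LSL libraries lay below the other 9, and the other 3 genotypes overlapped throughout.

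Dmrt3 averaged 312 ± 38.5 for Kmt2a+/+, 136 ± 32.3 for Kmt2a+/LSL, 325 ± 45.7 for Nes-Cre+/- Kmt2a+/+ and 314 ± 44.2 for Nes-Cre+/- Kmt2a+/LSL (mean ± SD of 3 libraries). Kmt2a+/LSL stood 2.29-fold lower than Kmt2a+/+, at −1.19 on the log2 scale (SE 0.23), and Nes-Cre+/- Kmt2a+/LSL stood 2.30-fold higher than Kmt2a+/LSL, at 1.20 (SE 0.23). These 2 values share the Kmt2a+/LSL libraries. Against the mean of the other 3 genotypes the log2 fold change was −1.22 (SE 0.20). Without the 2 libraries that stood apart the values were −1.26 (SE 0.21) for Kmt2a+/LSL against Kmt2a+/+ and 1.29 (SE 0.21) for Nes-Cre+/- Kmt2a+/LSL against Kmt2a+/LSL.

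The other 3 genotypes lay close together. Between Nes-Cre+/- Kmt2a+/+ and Kmt2a+/+ the log2 fold change was 0.06 (SE 0.23), and for Nes-Cre+/- Kmt2a+/LSL, set against Nes-Cre+/- Kmt2a+/+, it was −0.05 (SE 0.23). In bulk RNA, fewer Dmrt3-expressing cells and less Dmrt3 RNA per cell cannot be told apart.

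**Figure D1:**
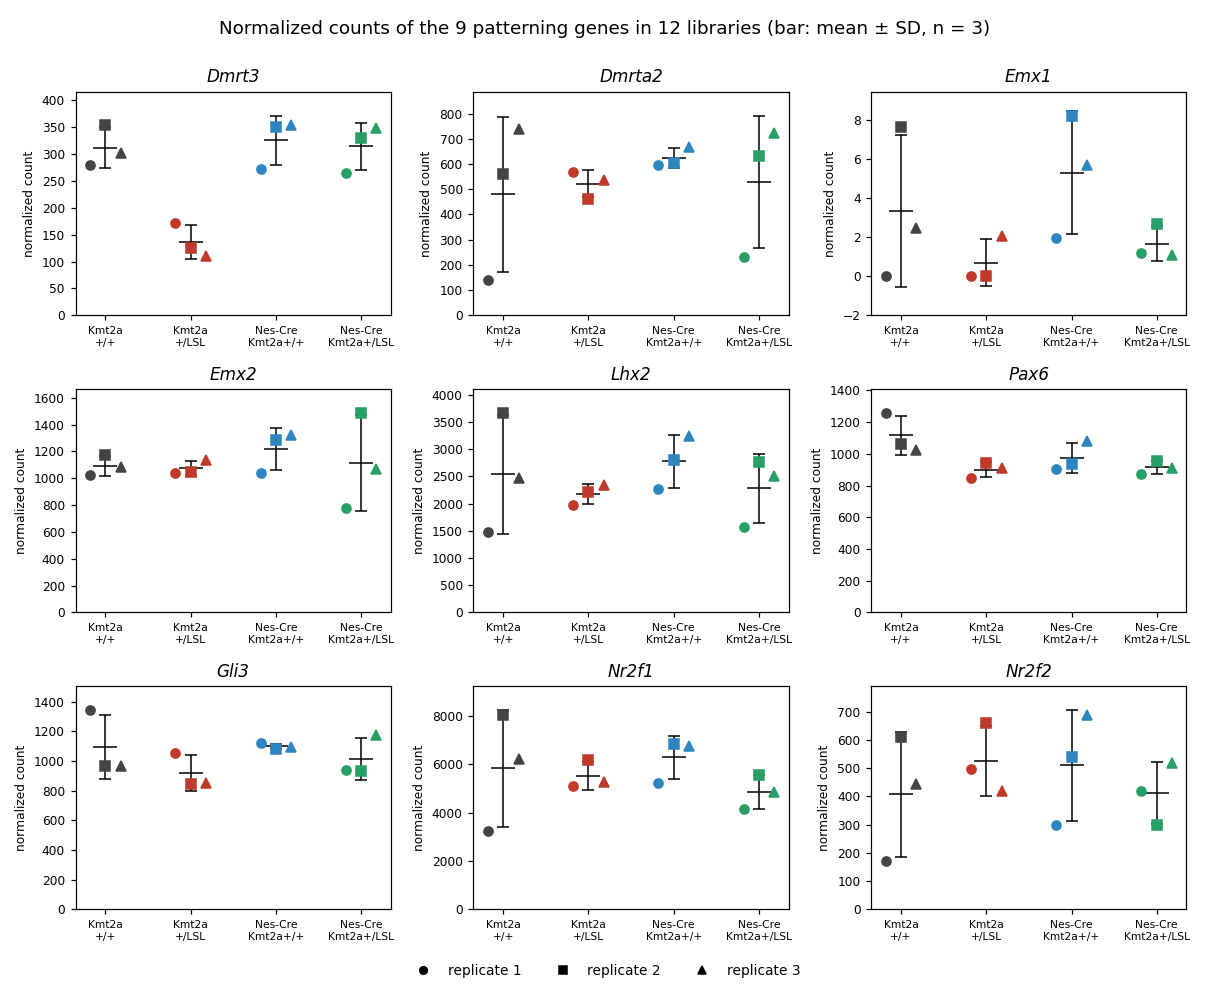
Normalized counts (vertical axes, starting at 0 except for Emx1, drawn from −2 to hold its error bar) of the 9 genes in 12 libraries, 3 per genotype along the horizontal axes. Points are libraries, shaped by replicate number, and bars show mean ± SD. The 3 Kmt2a+/LSL libraries of Dmrt3 sit at 110 to 172, below all others, and Kmt2a+/+ replicate 1 is the lowest point for Dmrta2, Lhx2, Nr2f1 and Nr2f2.

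Dmrta2 (ENSMUSG00000047143; chromosome 4, 109978053 to 109983687), the closest relative of Dmrt3 in the group and a gene needed for the cortical hem, did not show that pattern. The Kmt2a+/+ libraries held 140, 560 and 740 normalized counts, and the Kmt2a+/LSL libraries 567, 462 and 538. With the Cre transgene there were 598, 605 and 669 for Nes-Cre+/- Kmt2a+/+ and 231, 634 and 724 for Nes-Cre+/- Kmt2a+/LSL. The 2 lowest values were the 2 libraries that stood apart, and without those the other 10 ran from 462 to 740. Kmt2a+/LSL differed from Kmt2a+/+ by 0.12 on the log2 scale (SE 0.51, 95% interval −1.001 to 1.239, edgeR adjusted p = 1). Without the 2 libraries the sign turned, to −0.32 (SE 0.15, edgeR adjusted p = 0.373), and Nes-Cre+/- Kmt2a+/LSL against Kmt2a+/LSL moved from 0.02 (SE 0.51) to 0.36 (SE 0.15, edgeR adjusted p = 0.913).

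Emx2 (ENSMUSG00000043969; chromosome 19, 59458372 to 59465357), a homeodomain gene needed for hippocampal growth, was among the steadiest members. The Kmt2a+/+ libraries held 1023, 1171 and 1087 normalized counts, and the Kmt2a+/LSL libraries 1039, 1049 and 1139. The Cre-carrying libraries were wider, with 1040, 1287 and 1326 for Nes-Cre+/- Kmt2a+/+ and 779, 1490 and 1072 for Nes-Cre+/- Kmt2a+/LSL. All 4 genotypes overlapped, and Kmt2a+/LSL differed from Kmt2a+/+ by −0.02 (SE 0.22, 95% interval −0.50 to 0.45, edgeR adjusted p = 1). Without the 2 libraries that stood apart it was −0.070 (SE 0.15, edgeR adjusted p = 0.866), and Nes-Cre+/- Kmt2a+/LSL against Kmt2a+/LSL moved from 0.05 (SE 0.22) to 0.23 (SE 0.15, edgeR adjusted p = 0.913).

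Emx1 (ENSMUSG00000033726; chromosome 6, 85187438 to 85204462), which marks pallial progenitors and excitatory neurons in vivo, was close to absent. Kmt2a+/+ libraries held 0, 8 and 3 counts and Kmt2a+/LSL libraries 0, 0 and 2. With the Cre transgene there were 2, 8 and 6 for Nes-Cre+/- Kmt2a+/+ and 1, 3 and 1 for Nes-Cre+/- Kmt2a+/LSL. A count of 0 allows up to 3 counts, which was 0.112 to 0.178 CPM in the 3 libraries at 0, counting error only. No difference between genotypes was detectable at this depth, and no fold is given. With Emx2 present and Emx1 near 0, the cultures held only some of the markers that define dorsal telencephalic progenitors.

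Lhx2 (ENSMUSG00000000247; chromosome 2, 38339281 to 38369733), a LIM-homeodomain gene, measured 1486, 3673 and 2466 normalized counts for Kmt2a+/+ and 1979, 2214 and 2334 for Kmt2a+/LSL. Libraries of Nes-Cre+/- Kmt2a+/+ held 2277, 2810 and 3244, and those of Nes-Cre+/- Kmt2a+/LSL held 1563, 2761 and 2513. The Kmt2a+/LSL libraries lay inside the range of the wild type. The log2 fold change between them was −0.22 (SE 0.31, edgeR adjusted p = 1), and it became −0.49 (SE 0.18, edgeR adjusted p = 0.267) without the 2 libraries that stood apart.

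Pax6 (ENSMUSG00000027168; chromosome 2, 105668900 to 105697364), a paired-box gene of cortical radial glia, was the only member besides Dmrt3 with no overlap between the Kmt2a+/LSL and the wild-type libraries. Kmt2a+/+ libraries held 1260, 1061 and 1026 normalized counts, and Kmt2a+/LSL libraries 848, 941 and 909. The log2 fold change was −0.31 (SE 0.15, 95% interval −0.65 to 0.03, edgeR adjusted p = 1), and −0.21 (SE 0.11, edgeR adjusted p = 0.405) without the 2 libraries. Nes-Cre+/- Kmt2a+/LSL held 871, 957 and 913 and differed from Kmt2a+/LSL by 0.02 (SE 0.15, 95% interval −0.31 to 0.36, edgeR adjusted p = 1). Nes-Cre+/- Kmt2a+/+ had 902, 935 and 1078, so both genotypes with Cre overlapped Kmt2a+/LSL.

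Gli3 (ENSMUSG00000021318; chromosome 13, 15463235 to 15730026), the zinc finger effector of hedgehog signalling that is needed for hem formation, measured 1347, 969 and 968 normalized counts for Kmt2a+/+ and 1056, 847 and 854 for Kmt2a+/LSL. Nes-Cre+/- Kmt2a+/+ had 1119, 1083 and 1093, and Nes-Cre+/- Kmt2a+/LSL 936, 930 and 1174. Kmt2a+/LSL replicate 1 overlapped the wild type. The log2 fold change of −0.25 (SE 0.19, edgeR adjusted p = 1) shrank to −0.07 (SE 0.13, edgeR adjusted p = 0.834) without the 2 libraries, where Kmt2a+/+ replicate 1 had been the highest of the 12.

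The orphan nuclear receptor genes Nr2f1 and Nr2f2 (COUP-TFI and COUP-TFII) both varied widely within the wild type. Nr2f1 (ENSMUSG00000069171; chromosome 13, 78188973 to 78199757, minus strand) measured 3223, 8049 and 6206 normalized counts for Kmt2a+/+ and 5093, 6161 and 5258 for Kmt2a+/LSL. With the Cre transgene there were 5245, 6853 and 6759 for Nes-Cre+/- Kmt2a+/+ and 4166, 5546 and 4862 for Nes-Cre+/- Kmt2a+/LSL. The Kmt2a+/LSL values fell inside the wild-type range, with a log2 fold change of −0.08 (SE 0.28, edgeR adjusted p = 1). Without the 2 libraries that stood apart it was −0.37 (SE 0.15, edgeR adjusted p = 0.312).

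Nr2f2 (ENSMUSG00000030551; chromosome 7, 70351944 to 70366735, minus strand) measured 171, 610 and 442 normalized counts for Kmt2a+/+ and 498, 659 and 417 for Kmt2a+/LSL. Libraries of Nes-Cre+/- Kmt2a+/+ held 298, 541 and 689, and those of Nes-Cre+/- Kmt2a+/LSL held 418, 298 and 518. All genotypes overlapped. Kmt2a+/LSL differed from Kmt2a+/+ by 0.36 (SE 0.43, edgeR adjusted p = 1), and by 0.00074 (SE 0.34, edgeR adjusted p = 1) without the 2 libraries.

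**Figure D2:**
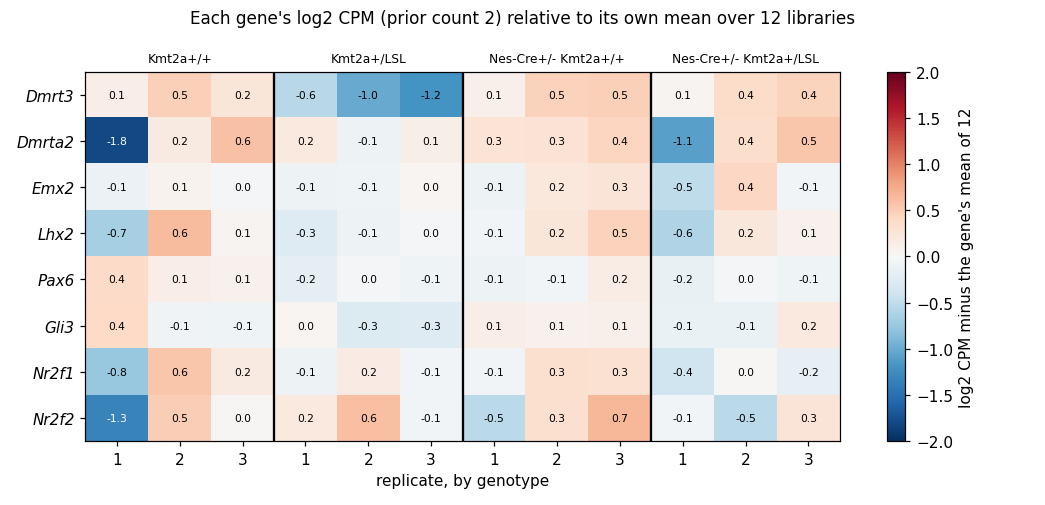
Log2 CPM of 8 genes (rows, Emx1 left out) in 12 libraries (columns, grouped by genotype), each as a difference from the gene's own mean over the 12. Colour and printed values give that difference. The Dmrt3 row is low in the 3 Kmt2a+/LSL libraries, while Dmrta2 and Nr2f2 have their lowest cell, −1.8 and −1.3, in Kmt2a+/+ replicate 1.

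Across the group, the 9 genes differed in how steady they were. The SD of log2 CPM over the 12 libraries was 0.16 for Pax6, 0.20 for Gli3 and 0.23 for Emx2, against 0.57 for Nr2f2, 0.59 for Dmrt3 and 0.72 for Dmrta2. Kmt2a+/+ replicate 1 gave the lowest of the 12 values for Dmrta2, Lhx2, Nr2f1 and Nr2f2, and the highest for Pax6 and Gli3. The spread of Dmrt3 lay between genotypes instead, with its lowest value in Kmt2a+/LSL replicate 3 and its highest in Kmt2a+/+ replicate 2.

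Counts between genes were compared as levels per kilobase of the principal transcript, averaged over the 12 libraries. Nr2f1 was highest at 1752 normalized counts per kilobase, followed by Lhx2 at 860, Emx2 at 386, Pax6 at 340, Dmrta2 at 184, Gli3 at 126, Dmrt3 at 114, Nr2f2 at 110 and Emx1 at 1.76. The library ranges of Nr2f1 and Lhx2 overlapped, as did those of Emx2 and Pax6, and those of Dmrta2, Gli3, Dmrt3 and Nr2f2. Lhx2 and Emx2 did not overlap on this scale, with a lowest library of 523 for Lhx2 and a highest of 511 for Emx2. Both statements depend on the length used. Per kilobase of all annotated exonic bases Pax6 was at 83.4, and the lowest library of Lhx2, 338, lay below the highest of Emx2, 496.

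Set against all 17076 genes that passed the filter (more than 10 counts in total and a count in at least 2 libraries), none of the 8 members other than Dmrt3 was called in any comparison, by edgeR, the DESeq2 Wald test or limma-voom. All 9 members passed the filter, Emx1 with a mean of 2.83 counts. For Kmt2a+/LSL against Kmt2a+/+, edgeR called 0 of 17076 genes (0% at an adjusted p under 0.05), and 306 genes (1.79%) had an unadjusted p under 0.05. None of the 8 members other than Dmrt3 was among those 306. The count of 306 became 1521 without Kmt2a+/+ replicate 1, 597 without replicate 2 and 1029 without replicate 3 of that genotype, and 193 without Kmt2a+/LSL replicate 1. Without both libraries that stood apart it was 2464 of 16858 genes (14.6%), among them Lhx2, Nr2f1 and Emx1, the last near the floor. None of these 3 members passed the adjusted threshold. Of those 8, libraries did not overlap, lower in Kmt2a+/LSL, for Pax6, where 1.76% of all genes did so, and for none in the higher direction (2.30% of all genes). The fitted change was below 0 for 7 of the 9 members and above 0 for Dmrta2 and Nr2f2, and the median was −0.22, or −0.15 without Dmrt3, against 0.00 over all genes. Without both libraries that stood apart 8 of the 9 were below 0, and their median was −0.32.

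For Nes-Cre+/- Kmt2a+/LSL against Kmt2a+/LSL, 0% of genes were called at an adjusted p under 0.05 and 1.61% (275 genes) had an unadjusted p under 0.05, none of them among the 8 members other than Dmrt3. That count was 661 without Kmt2a+/+ replicate 1 and 872 (5.17%) without both libraries that stood apart, where Dmrta2 was among them. None of the 8 other members had libraries without overlap, where 3.54% of all genes were higher and 3.57% lower in that way. Of the 9 members, 7 had a value above 0, and the median was 0.05, or 0.04 without Dmrt3. Without both libraries that stood apart 7 were again above 0, and the median of the 9 was 0.23. Nr2f1, at −0.18 (SE 0.28), and Nr2f2, at −0.35 (SE 0.43), were the members below 0. This comparison shares its Kmt2a+/LSL libraries with the one before.

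Nestin-Cre alone was compared between Nes-Cre+/- Kmt2a+/+ and Kmt2a+/+. Here 0% of genes were called and 1.40% (239 genes) had an unadjusted p under 0.05, with 0 of the 8 other members among them. That count was 1035, 754 and 901 without Kmt2a+/+ replicates 1, 2 and 3, 142 and 150 without Nes-Cre+/- Kmt2a+/+ replicates 2 and 3, and 1883 without both libraries that stood apart, again with 0 members among them. Libraries overlapped for all 9 members, where 1.53% of genes were lower and 2.82% higher without overlap. With all 12 libraries the values of 8 members were above 0, while without both libraries that stood apart 6 of the 9 were below 0. That of Pax6 was −0.20 (SE 0.15, edgeR adjusted p = 1). Among the members with a mean over 50 counts the largest values were those of Dmrta2, at 0.38 (SE 0.51), and Nr2f2, at 0.32 (SE 0.43), both turned below 0 by leaving out Kmt2a+/+ replicate 1.

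With Cre in both groups, Nes-Cre+/- Kmt2a+/LSL against Nes-Cre+/- Kmt2a+/+, 0% of genes were called and 1.11% (190 genes) had an unadjusted p under 0.05. All 9 members had a value below 0, with a median of −0.24, but none of the 8 other members was among those 190 and no libraries separated (3.58% of genes lower, 3.10% higher without overlap). Nr2f1 had the largest change of the members with a mean over 50 counts, −0.37 (SE 0.28, edgeR adjusted p = 1). Without the 2 libraries that stood apart, 6 of the 9 were below 0. The count of 190 was 548 without Kmt2a+/+ replicate 1, 126 without Nes-Cre+/- Kmt2a+/+ replicate 2, 294 without Nes-Cre+/- Kmt2a+/LSL replicate 2 and 593 without both libraries that stood apart.

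Against the mean of the other 3 genotypes, Kmt2a+/LSL had 0.00586% of genes called, which was 1 gene, Grb10, and 1.20% (205 genes) with an unadjusted p under 0.05. The call was lost, with 0 genes called, when any 1 of 10 of the 12 libraries was left out and with replicate number as a block. None of the 8 other members was among the 205. That count was 487 without Kmt2a+/+ replicate 1 and 350 without Kmt2a+/+ replicate 3, and without both libraries that stood apart it was 1179 (6.99%), with Dmrta2 and Lhx2 among them. The 3 Kmt2a+/LSL libraries lay below all 9 others for 0.199% of genes (34 genes), and of the members only for Dmrt3, which had been chosen for it. The difference between the LSL effect with and without Cre called 0% of genes. For Pax6 that difference was 0.22 (SE 0.22, edgeR adjusted p = 1.00) and for Nr2f2 −0.67 (SE 0.61, edgeR adjusted p = 1.00).

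**Figure D3:**
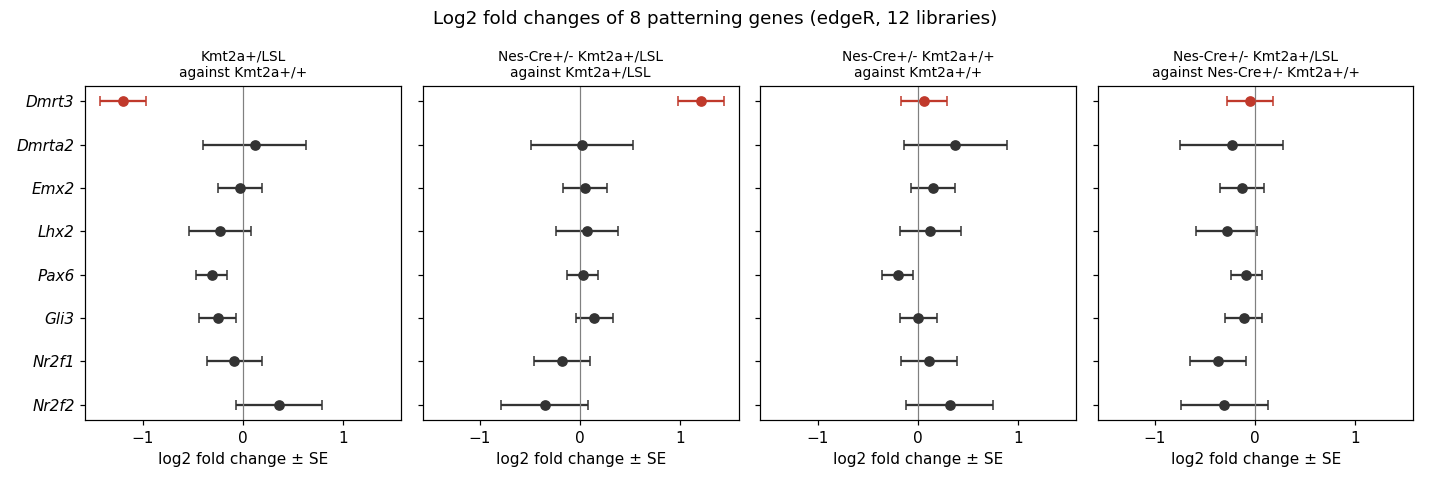
Log2 fold changes with standard errors (horizontal axes) of 8 genes (Emx1 left out for its low counts) in 4 comparisons of genotypes, from 1 edgeR fit of 12 libraries. Dmrt3 (red) lies at −1.19 and 1.20 in the left panels and near 0 in the right panels, while the widest bars belong to Dmrta2 and Nr2f2.

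The genes around Dmrt3 were read next, since the DM-domain genes Dmrt1, Dmrt3 and Dmrt2 stand side by side on chromosome 19. Within 500000 bases the annotation has 4 other protein-coding genes, Dock8, Kank1, Dmrt1 and Dmrt2. Kank1, a cytoskeletal regulator 175805 bases away and the only neighbour with high counts, averaged 1188 ± 336 normalized counts for Kmt2a+/+ and 984 ± 125 for Kmt2a+/LSL (SD, n = 3 each), a log2 fold change of −0.27 (SE 0.23, edgeR adjusted p = 1). Dock8, a guanine nucleotide exchange factor, differed by 0.34 (SE 0.47, edgeR adjusted p = 1).

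Dmrt2, 48490 bases downstream and known from somite development, had only 104 counts in all 12 libraries. Kmt2a+/+ libraries held 8.55, 10.5 and 7.40 normalized counts, Kmt2a+/LSL libraries 0, 1.95 and 8.26, and its means in the genotypes with Cre were 11.4 and 11.3. The Kmt2a+/LSL and Kmt2a+/+ libraries overlapped, and the log2 fold change of −1.37 (SE 0.85, edgeR adjusted p = 1) rests on very few counts. Nes-Cre+/- Kmt2a+/LSL held 9.54, 13.5 and 10.9, without overlap with Kmt2a+/LSL, a change of 1.73 (SE 0.84, edgeR adjusted p = 1). Dmrt1, best known from the testis, had 24 counts in all.

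Elsewhere in the DM-domain family, 7 of the 8 genes in the table passed the filter. Dmrtb1 averaged 482 ± 171 normalized counts for Kmt2a+/+ and 566 ± 54.1 for Kmt2a+/LSL, a change of 0.23 (SE 0.30, edgeR adjusted p = 1). Dmrta1 had 51.0 ± 9.83 and 63.2 ± 21.6 (SD, n = 3 each), a change of 0.31 (SE 0.35, edgeR adjusted p = 1). Among the 4 family genes with a mean of at least 50 counts, Dmrt3 had a value below 0 in Kmt2a+/LSL and the other 3 had values above 0, but without Kmt2a+/+ replicate 1 Dmrta2 was at −0.32 (SE 0.34) and Dmrtb1 at −0.031 (SE 0.23).

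The genes whose pattern over the 12 libraries was most like that of Dmrt3 were named by the smallest root-mean-square difference of centred log2 CPM among 11676 genes with a mean of at least 50 counts. They were Grb10 (0.210), an imprinted adaptor of growth factor receptors, Kmt2a itself (0.269), Ccdc8 (0.360), Sp9 (0.362) and Gstt3 (0.372). A gene with the same value in every library would have 0.565. Of the other members, Gli3 was at rank 80 (0.490), Pax6 at 250 (0.528), Emx2 at 490 (0.546) and Lhx2 at 587 (0.550), each a little nearer to Dmrt3 than a flat gene. Nr2f1 at 3204, Nr2f2 at 9674 and Dmrta2 at 9938 were farther from it than a flat gene. Likeness here is a description over libraries that share a culture system and, within genotypes, the level of Kmt2a.

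Other patterning genes were grouped by where they act. Of the hem and roof plate genes, 15 of 17 were tested, 9 with a lower and 6 with a higher value in Kmt2a+/LSL than in Kmt2a+/+, and none had an unadjusted p under 0.05. Wnt5a, a Wnt ligand of the hem, had 4168 ± 543 and 4686 ± 934 normalized counts (SD, n = 3 each), a change of 0.17 (SE 0.19, edgeR adjusted p = 1). Bmp7 differed by −0.15 (SE 0.32) and Wnt8b, with a mean of 67.3 counts, by −0.25 (SE 0.56), with an edgeR adjusted p of 1 for each, and by −0.42 (SE 0.26) and −0.54 (SE 0.54) without Kmt2a+/+ replicate 1. The libraries of both genotypes overlapped for all 15 genes.

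The rostral signalling centre list had 9 genes tested, 6 lower and 3 higher, with none under an unadjusted p of 0.05 with all libraries. Without Kmt2a+/+ replicate 1, 7 were lower and 2 higher. Etv4, named after its values were seen, was then at −0.48 (SE 0.16), with an unadjusted edgeR p under 0.05. Sp8 differed by −0.16 (SE 0.26) and Etv5, a target of FGF signalling, by 0.20 (SE 0.23), with an edgeR adjusted p of 1 each, and by 0.010 (SE 0.25) and 0.077 (SE 0.22) without Kmt2a+/+ replicate 1. Of the 8 hippocampal field genes 6 were lower and 2 higher with all libraries, none with an unadjusted p under 0.05. Zbtb20, Nfia and Nfib, transcription factor genes of hippocampal and glial development, each lay between −0.19 and −0.18 with SEs of 0.19 to 0.29. Those signs rested on Kmt2a+/+ replicate 1. Without it Zbtb20 was at 0.26 (SE 0.19), Nfib at 0.25 (SE 0.17) and Nfia at 0.012 (SE 0.15), and 3 of the 8 genes were lower and 5 higher. Of the 8, 1 then had an unadjusted edgeR p under 0.05. Fzd9, named after its values were seen, held 485 normalized counts in Kmt2a+/+ replicate 1 and 5822 and 7213 in replicates 2 and 3. Its Kmt2a+/LSL libraries held 3771, 4599 and 5462.

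The antihem is the lateral counterpart of the hem and expresses Sfrp2, a secreted Wnt inhibitor. Sfrp2 measured 225, 146 and 194 normalized counts for Kmt2a+/+ and 110, 135 and 121 for Kmt2a+/LSL, and the 2 genotypes did not overlap. Its change was −0.62 (SE 0.33, edgeR adjusted p = 1), and it was 0.51 (SE 0.33, edgeR adjusted p = 1) for Nes-Cre+/- Kmt2a+/LSL, with 172, 129 and 222, against Kmt2a+/LSL. Of 5 antihem genes tested, 3 were lower and 2 higher (2 and 3 without Kmt2a+/+ replicate 1), and 1 of them, Nrg1, was among the 306 genes above. Nrg1, named after its values were seen, is a growth factor gene near the floor here, at 0 in all 3 Kmt2a+/+ libraries and 6.28, 14.6 and 7.23 normalized counts in those of Kmt2a+/LSL.

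Among 10 pallial progenitor and neuron genes tested, 4 were lower, 5 higher and 1 at 0. Bhlhe22, a transcription factor gene of cortical projection neurons, measured 123, 182 and 103 normalized counts for Kmt2a+/+, 66.4, 78.8 and 104 for Kmt2a+/LSL, and 136, 179 and 115 for Nes-Cre+/- Kmt2a+/LSL. Kmt2a+/LSL replicate 3 lay just inside the wild-type range. Its change was −0.71 (SE 0.29, edgeR adjusted p = 1) and 0.78 (SE 0.29, edgeR adjusted p = 1) for Nes-Cre+/- Kmt2a+/LSL against Kmt2a+/LSL. Bhlhe22 was the gene of this list among the 306 with an unadjusted p under 0.05. Tbr1, of early cortical neurons, and Neurog2, a proneural gene, gave 0.67 (SE 0.46) and −0.15 (SE 0.95), with an edgeR adjusted p of 1 each, and 0.27 (SE 0.31) and −0.68 (SE 0.76) without Kmt2a+/+ replicate 1. Tbr1 measured 12.8, 61.0 and 46.1 normalized counts for Kmt2a+/+ and 61.1 to 67.1 for the 3 libraries of Kmt2a+/LSL. In Nes-Cre+/- Kmt2a+/LSL it measured 38.2, 59.2 and 39.3. Kmt2a+/LSL lay above both without overlap, but above Kmt2a+/+ only narrowly, at 61.1 against 61.0. Of all genes, 2.30% were higher in Kmt2a+/LSL than in Kmt2a+/+ without overlap. In Nes-Cre+/- Kmt2a+/LSL 3.57% were lower than in Kmt2a+/LSL in that way. For Nes-Cre+/- Kmt2a+/LSL against Kmt2a+/LSL Tbr1 differed by −0.49 (SE 0.46, edgeR adjusted p = 1).

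The subpallial list covers genes of the ventral telencephalon, the territory that the dorsal factors oppose. Of 15 tested, 10 were lower and 5 higher in Kmt2a+/LSL, with a median of −0.09. Without Kmt2a+/+ replicate 1, 12 were lower and 3 higher, the median was −0.26, and 1 had an unadjusted edgeR p under 0.05. Sp9 and Dlx6, the latter named after its values were seen and with a mean of 7.58 counts, were among the 306 genes with an unadjusted p under 0.05. All 15 had a value above 0 in Nes-Cre+/- Kmt2a+/LSL against Kmt2a+/LSL, with a median of 0.35 (0.0017 over all genes, of which 49.5% were below 0). Only 8 of the 15 had a mean of at least 50 counts, and 1 had an unadjusted edgeR p under 0.05 there. In that comparison values were above 0 for 12 of 15 hem and roof plate genes (median 0.22), 7 of 9 rostral genes (0.10), 7 of 8 hippocampal field genes (0.24) and 7 of 9 midbrain, hindbrain and spinal genes (0.63). Without both libraries that stood apart these were 13 of 15 (0.20), 8 of 9 (0.18), 7 of 8 (0.10) and 5 of 7 (0.51). Values were above 0 for 4 of 10 pallial genes (−0.09) and 2 of 5 antihem genes (−0.03), but for 7 of 10 (0.23) and 3 of 5 (0.034) without both libraries that stood apart. These lists were not tested against each other. Sp9, a zinc finger gene of interneuron progenitors, measured 54.2, 55.2 and 70.7 normalized counts for Kmt2a+/+ and 32.3, 17.5 and 37.2 for Kmt2a+/LSL, without overlap. Its change was −1.05 (SE 0.37, edgeR adjusted p = 1). Nes-Cre+/- Kmt2a+/LSL had 40.6, 48.5 and 69.9, again without overlap, a change of 0.87 (SE 0.37, edgeR adjusted p = 1).

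Gsx1, a homeobox gene of ventral progenitors, differed by −0.76 (SE 0.66, edgeR adjusted p = 1), with its libraries overlapping. Of 9 midbrain, hindbrain and spinal genes tested with all libraries, 7 were lower and 2 higher, none with an unadjusted p under 0.05. Without Kmt2a+/+ replicate 1, 8 were tested, 7 lower and 1 higher, and 1 had an unadjusted edgeR p under 0.05. The median moved from −0.51 to −0.87. En2, a homeobox gene of the midbrain and hindbrain, measured 54.2, 56.2 and 69.9 normalized counts for Kmt2a+/+ and 35.0, 43.8 and 49.5 for Kmt2a+/LSL, without overlap. En1, its relative, named after its values were seen, did not overlap either and was lower too. These were 2 of the 9 genes tested. Of all genes, 1.76% lay lower in Kmt2a+/LSL without overlap, as Sfrp2 and Sp9 above also did. En2 differed by −0.49 (SE 0.32), Gbx2 by 0.82 (SE 0.60) and Irx3 by 0.11 (SE 0.41), with an edgeR adjusted p of 1 each. Without Kmt2a+/+ replicate 1 these were −0.56 (SE 0.33), 0.40 (SE 0.52) and −0.23 (SE 0.32). No list had a gene past an edgeR adjusted p of 0.05, with all libraries or without Kmt2a+/+ replicate 1.

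**Figure D4:**
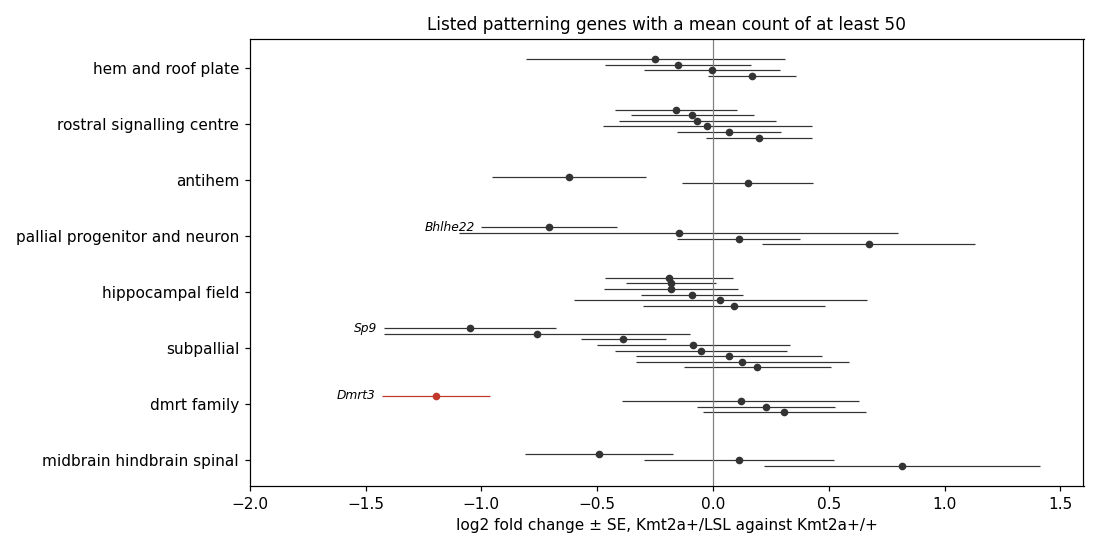
Log2 fold change with standard error (horizontal axis) of Kmt2a+/LSL against Kmt2a+/+ for the genes of 8 patterning lists (vertical axis) with a mean of at least 50 counts. Dmrt3 is red, and names mark genes with an unadjusted p under 0.05. Dmrt3 at −1.19 and Sp9 at −1.05 lie farthest below 0, and most other bars cross it.

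Markers of other cell types were summed beside these values. Neuron markers, with 8 of 8 measured, summed to 1287 to 1536 CPM in Kmt2a+/LSL, 1018 to 1918 in Kmt2a+/+ and 1358 to 1718 in Nes-Cre+/- Kmt2a+/LSL. Astrocyte markers, with 6 of 6 measured, summed to 1844 to 2458, 1160 to 3281 and 1533 to 2188 CPM, and oligodendrocyte lineage markers, with 6 of 6, to 220 to 358, 99.4 to 316 and 188 to 296 CPM. The genotypes overlapped in each. The neuron sum mostly followed Map2, which had a mean of 32256 counts over the 12 libraries. Tubb3 was next with 468, and Stmn2 had 2.08. The part of cell makeup in the values of Dmrt3 was not tested. Kmt2a+/+ replicate 1, the lowest of the 12 for Dmrta2, Nr2f1 and Nr2f2, also had the lowest summed subpallial list, at 1330 CPM against 3449 to 5447 in the other 11, and the highest value of Fabp7, a radial glia gene, at 214648 normalized counts against 118142 in the next. The part of cell makeup in those members' values was not tested.

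Reads that could be shared with other genes touched few of these values. No 31-base word of Dmrt3, Dmrta2 or Emx2 transcripts occurred in another gene, and for Nr2f1 and Nr2f2 0.864% and 0.901% did, with 39 such words shared between the pair. Antisense genes overlap exons of Emx2, Gli3, Nr2f1 and Nr2f2, and they have no line of their own in the count table. Whether strand was used in counting is not given in the sources used here, so for those 4 genes the antisense share cannot be told apart.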

How the data were processed

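Poly(A) RNA of 12 mNPC libraries was analysed, 3 per genotype, grouped by the labels. The authors had pseudoaligned reads to the mm10 (GRCm38) transcriptome with kallisto 0.48.0, and deposited the estimated counts per gene, in whole numbers, after tximport and biomaRt. Submitters' processing notes also name DESeq2 1.42.0. Of 18911 Ensembl IDs, 18718 matched a GENCODE vM21 (GRCm38) symbol. A gene entered the fit when its counts summed to over 10 and at least 2 libraries held it. The fit was made with edgeR 4.0.16 (R 4.3.3; quasi-likelihood F-test, TMM, genotype as only factor, all 12 libraries), with Benjamini-Hochberg adjustment over 17076 genes. Each SE is the fold change divided by the root of F, and 95% intervals use the t distribution. Levels are TMM-scaled counts, and log2 CPM used a prior count of 2. The members and gene lists were chosen with earlier results of these data known. Named were all members, up to 3 genes of each list with the largest change in Kmt2a+/LSL and a mean of at least 50 counts, protein-coding genes within 500000 bases of Dmrt3, and the 5 genes most like it. Sox2, Olig2, Fabp7, Hes5, marker sums and the genes that led or departed from those sums were given as checks of the cells.

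Each method was tested on simulated counts. DESeq2 made more false calls there than the limit first set for all 3 methods, and the limit was afterwards kept for edgeR only. Alternatives tried were size factors from DESeq2, its Wald test, limma-voom 3.58.1 with quality weights, other filters, the 9 libraries without Nes-Cre+/- Kmt2a+/+, a replicate block, an adjusted p under 0.1, and leaving out each library. Leaving out both libraries that stood apart was added after seeing the data. No library repeated another. Some genes that the naming rule chose are not reported here.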

Additional observations from a re-analysis of the deposited data

How the results depend on the processing

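The 2 values of Dmrt3 that describe its low and returned level kept their direction under every alternative run, at −1.30 to −1.18 and 1.19 to 1.29, and at −1.40 to −1.07 and 1.07 to 1.41 with each library left out. None of the 8 members other than Dmrt3 was called under any alternative. Counts of called genes depended on the method. The DESeq2 Wald test called 7 genes for Kmt2a+/LSL against Kmt2a+/+, 7 for Nes-Cre+/- Kmt2a+/LSL against Kmt2a+/LSL, 3 for Nes-Cre+/- Kmt2a+/+ against Kmt2a+/+, 3 with Cre in both groups, 4 for Kmt2a+/LSL against the other genotypes and 10 for the difference of the LSL effects, and on simulated counts that test made more false calls than its nominal rate, while edgeR missed most of the changed genes at the larger of the simulated dispersions. Limma-voom called 2 for Kmt2a+/LSL against Kmt2a+/+, 2 for Nes-Cre+/- Kmt2a+/LSL against Kmt2a+/LSL and 4 against the other genotypes. Its counts at an unadjusted p under 0.05 were 1312 (7.68% of genes), 689 (4.03%) and 969 (5.67%), with 3, 0 and 2 of the 8 members other than Dmrt3, and 851 (4.98%) with Cre in both groups, Nr2f1 among them. DESeq2 had Pax6 among its 324 (1.90%) for Kmt2a+/LSL against Kmt2a+/+. An adjusted p under 0.1 gave 1 for Nes-Cre+/- Kmt2a+/LSL against Kmt2a+/LSL and 1 for Nes-Cre+/- Kmt2a+/+ against Kmt2a+/+. Leaving out both libraries that stood apart gave 2, 1 and 1 for Kmt2a+/LSL against Kmt2a+/+, Nes-Cre+/- Kmt2a+/LSL against Kmt2a+/LSL and Nes-Cre+/- Kmt2a+/+ against Kmt2a+/+, and 2 against the other genotypes. With single libraries left out the ranges were 0 to 2, 0 to 1 and, against the other genotypes, 0 to 2. There, 2 genes were called without Kmt2a+/+ replicate 1, 1 without Kmt2a+/+ replicate 3 and 0 without any of the other 10. The replicate block gave 0 calls against the other genotypes. The labels do not say whether replicate numbers pair the samples. Residuals of same-numbered libraries had a mean correlation of 0.084 (−0.072 to 0.416, 18 pairs) against −0.041 for other pairs. With 3 libraries per genotype these values do not decide it. The cause of the differences between methods was not tested.

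Signs of small changes turned in 44 of the values computed for the 9 members. For Kmt2a+/LSL against Kmt2a+/+, limma-voom gave −0.20 for Dmrta2 and −0.04 for Nr2f2, and without both libraries Dmrta2 was −0.32. With single libraries left out, Dmrta2 ran from −0.32 to 0.57, Emx2 from −0.070 to 0.027, Lhx2 from −0.49 to 0.14 and Nr2f1 from −0.37 to 0.22. For Nes-Cre+/- Kmt2a+/LSL against Kmt2a+/LSL, the replicate block gave −0.17 for Dmrta2, and single libraries left out gave −0.27 to 0.38 for Dmrta2, −0.22 to 0.25 for Emx2, −0.094 to 0.28 for Lhx2 and −0.018 to 0.063 for Pax6. For Nes-Cre+/- Kmt2a+/+ against Kmt2a+/+, limma-voom gave −0.15 for Lhx2 and −0.14 for Nr2f1. Gli3 was −0.038 with DESeq2 size factors, −0.036 with the Wald test and −0.0081 with at least 10 counts in every library. Without both libraries Dmrt3 was −0.017, Dmrta2 −0.066, Lhx2 −0.15, Nr2f1 −0.19 and Nr2f2 −0.052. Single libraries left out gave −0.017 to 0.17 for Dmrt3, −0.066 to 0.83 for Dmrta2, −0.15 to 0.49 for Lhx2, −0.076 to 0.18 for Gli3, −0.19 to 0.41 for Nr2f1 and −0.053 to 0.73 for Nr2f2. With Cre in both groups, Dmrt3 was 0.045, Dmrta2 0.11 and Emx2 0.062 without both libraries, and −0.16 to 0.058, −0.53 to 0.12 and −0.40 to 0.073 with single libraries left out.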

Other observations

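Some glial markers and Flt1 were lower in Nes-Cre+/- Kmt2a+/LSL than in Kmt2a+/LSL without overlap of the libraries, 2 of 6 astrocyte, 2 of 6 oligodendrocyte lineage and 1 of 5 endothelial and mural markers tested, where 3.57% of all genes were. Flt1, a receptor gene for vascular growth factors, measured 286, 211 and 104 normalized counts for Kmt2a+/LSL and 90.7, 55.6 and 100.5 with the Cre transgene added, a change of −1.29 (SE 0.40, edgeR adjusted p = 1), while its list had 2 genes below 0 and 3 above, with a median of 0.34. No marker of these lists passed the adjusted threshold.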
